A study of Homo sapiens with 2 samples.

Results

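The HOX cluster genes are 39 homeobox genes of 4 chromosomal clusters, HOXA, HOXB, HOXC and HOXD. Their members were taken by symbol alone, as every symbol of the deposited table made of HOX, a cluster letter and a paralogue number, which gave all 39 of the 59429 symbols listed: 11 of HOXA, 10 of HOXB, 9 of HOXC and 9 of HOXD. RNA-seq was performed on 2 samples of the human neuroblastoma cell line SK-N-AS (AS), which lacks MYCN amplification. AS STRAP KO cells carry a CRISPR-Cas9 knockout of STRAP, the gene of a scaffold protein, and were grown from a single sorted cell as 1 clone, while AS WT cells are the unedited culture. Both were untreated and kept in the same medium, and each has 1 column of FPKM (reads per 1000 bases of transcript and per 1000000 mapped reads). The comparison asks how the transcriptome differs once STRAP is lost. Each column is called a library here, although the sources do not say how many replicates entered it. With 1 column per condition, differences could not be set against the spread of replicates and were not tested, and an effect of the knockout cannot be told apart from a property of the clone.

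HOX genes encode transcription factors that bind DNA through a homeodomain and give cells along the body axis their positional identity. Within a cluster the genes stand in a row on 1 strand, with the low paralogue numbers, used in the head and neck, at the 3′ end and the high ones, used in the trunk, limbs and tail, at the 5′ end. Silent clusters are typically covered by Polycomb proteins, active ones by Trithorax proteins such as KMT2A, and HOX proteins bind DNA together with PBX, MEIS and PKNOX cofactors. Neuroblastoma derives from the neural crest of the trunk, where HOX genes of the middle paralogue groups are normally used.

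STRAP itself, the gene that was edited, stood at 179 FPKM in AS STRAP KO and 244 FPKM in AS WT, a level that does not measure the edit. Both libraries had nearly the same depth, since 1 FPKM stood for an estimated 26.7 reads on each 1000 bases of transcript in AS STRAP KO and for 26.3 in AS WT. Of the markers of sympathetic neuroblastoma, HAND2 had 228 FPKM in AS STRAP KO and 227 FPKM in AS WT, while PHOX2A (12.01 FPKM in AS STRAP KO and 50.05 FPKM in AS WT) and ISL1 (0.734 FPKM in AS STRAP KO and 2.69 FPKM in AS WT) were lower by over 2-fold in AS STRAP KO and TH, DDC and CHGA were at 0 in both. All 11 mesenchymal neuroblastoma markers reached 1 FPKM, of which PRRX1 was over 2-fold higher in AS STRAP KO (11.5 FPKM in AS STRAP KO and 3.14 FPKM in AS WT) and SNAI2 over 2-fold lower (8.41 FPKM in AS STRAP KO and 22.0 FPKM in AS WT). Of 7 stromal marker rows at that level, 5 (71.4%) were lower by at least 2-fold in AS STRAP KO and none was higher by as much. Among the 13527 rows of the whole table at that level, 10.6% passed this limit downwards and 8.31% upwards. The 5 stromal rows were COL3A1 (0.242 FPKM in AS STRAP KO and 17.8 FPKM in AS WT), LUM (1.06 FPKM in AS STRAP KO and 23.7 FPKM in AS WT), DCN (0 FPKM in AS STRAP KO and 2.27 FPKM in AS WT), THY1 (48.4 FPKM in AS STRAP KO and 204 FPKM in AS WT) and FAP (0.0956 FPKM in AS STRAP KO and 9.22 FPKM in AS WT). The whole stromal list summed to 913 FPKM in AS STRAP KO and 784 FPKM in AS WT, carried by COL1A1 (785 FPKM in AS STRAP KO and 459 FPKM in AS WT), and without it to 128 FPKM in AS STRAP KO and 325 FPKM in AS WT, where the row of PDGFRA also holds FIP1L1. Of the epithelial markers CLDN4 was over 2-fold higher in AS STRAP KO (38.2 FPKM in AS STRAP KO and 10.1 FPKM in AS WT), and of the 6 blood markers CD14 alone reached 1 FPKM. The part of these shifts in the HOX values was not tested.

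The table merges overlapping genes, so the 39 HOX genes stand in 29 rows. A total of 5 rows hold 15 of them, and the genes of a shared row have 1 common value that cannot be divided among them: HOXA3 with HOXA4 and HOXA6, HOXA9 with HOXA10, HOXB3 with HOXB4 and HOXB6, HOXC4 with HOXC5, HOXC6, HOXC9 and HOXC10, and HOXD10 with HOXD11. No HOX symbol had a repeated row. At least 1 FPKM in at least 1 library was reached by 18 rows with 28 genes, and the other 11 rows stayed below.

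Of the 4 clusters, HOXA differed most between the libraries. Summed over its 8 rows, HOXA had 29.0 FPKM in AS STRAP KO and 1.75 FPKM in AS WT, a 16.6-fold higher level. HOXB summed to 203 FPKM in AS STRAP KO and 198 FPKM in AS WT, HOXC to 79.6 FPKM in AS STRAP KO and 82.0 FPKM in AS WT and HOXD to 65.7 FPKM in AS STRAP KO and 79.9 FPKM in AS WT. HOXA made up 7.70% of all HOX FPKM in AS STRAP KO and 0.483% in AS WT. These sums set the scale: even in AS STRAP KO, HOXA stayed below each of the other clusters, and the total over all HOX rows was 377 FPKM in AS STRAP KO and 361 FPKM in AS WT.

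**Figure D1:**
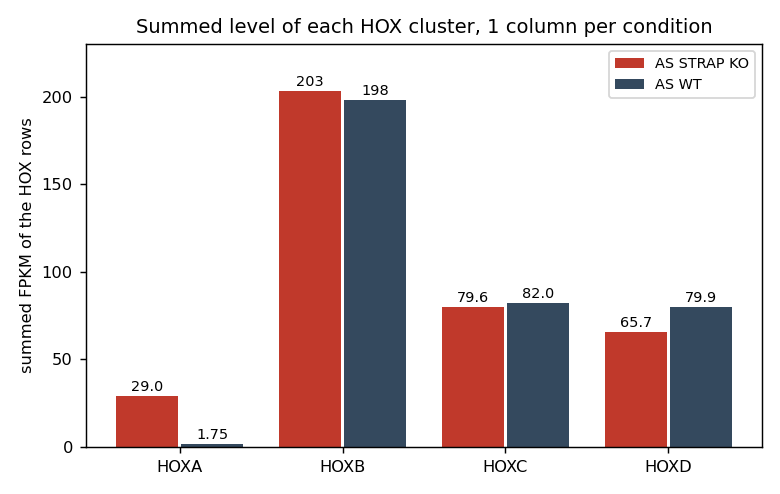
Summed FPKM of the HOX rows of each cluster (vertical axis, linear from 0) in AS STRAP KO (left bar of each pair) and AS WT (right bar), with 1 column of values each and no error bars. The HOXA bars are 29.0 FPKM in AS STRAP KO and 1.75 FPKM in AS WT, while the bars of HOXB, HOXC and HOXD differ little within a pair.

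Of the 18 HOX rows with at least 1 FPKM, 5 were at least 2-fold higher in AS STRAP KO, against 8.31% of the 13527 rows of the whole table at that level. All 5 were also at least 8-fold higher, against 1.97% of the whole table. They were the 4 HOXA rows at this level and HOXB9. A limit of this count is that each of the 5 reached 1 FPKM in AS STRAP KO alone, so that the filter kept them only through their high value. With at least 1 FPKM required in both libraries, 12 HOX rows were left and none was at least 2-fold higher, against 4.87% of 11846 rows. Without any filter on level, all 8 HOXA rows were higher in AS STRAP KO by some amount, against 45.7% of the 24428 rows above 0 FPKM in at least 1 library. HOXB had 4 of 8 rows higher, HOXC 3 of 5 and HOXD 1 of 8. At least 2-fold lower were 2 HOX rows, HOXC11 and HOXD3, against 10.6% of the whole table.

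**Figure D2:**
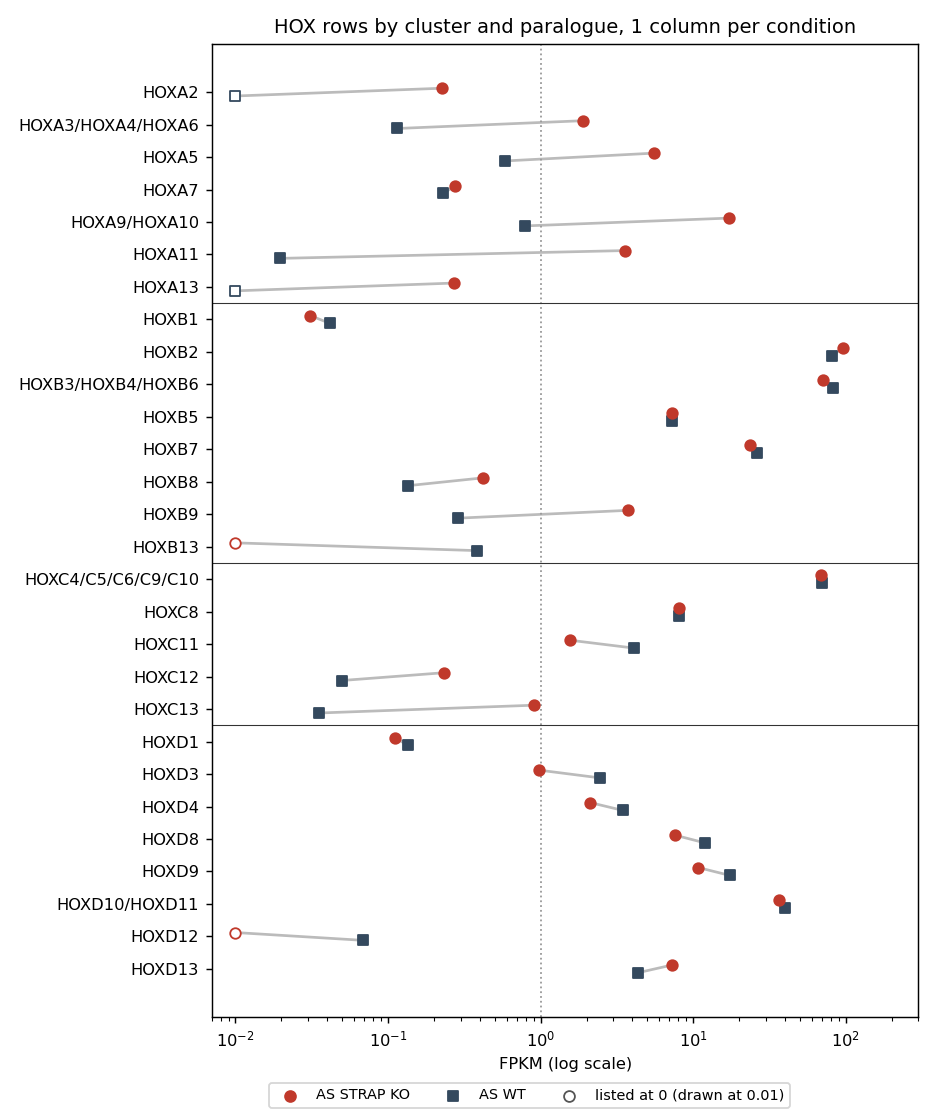
FPKM (log axis) of HOX rows in AS STRAP KO (circles) and AS WT (squares), ordered by cluster and paralogue number, with open symbols at 0.01 for values listed at 0 and a dotted line at 1 FPKM. All HOXA circles lie to the right of their squares, and in HOXA no square reaches 1 FPKM, where the highest is 0.796 FPKM.

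HOXA lies on chromosome 7 of GRCh38 from 27092993 to 27200091, with all 11 genes on the minus strand. The row of HOXA9 and HOXA10, posterior genes known for roles in blood progenitors and in the limb and uterus, had 17.1 FPKM in AS STRAP KO and 0.796 FPKM in AS WT. By the lengths of its annotated transcripts this was an estimated 147 to 1070 reads in AS STRAP KO and 6.71 to 49.0 reads in AS WT. The ratio was 21.6, with a 95% counting interval of 9.80 to 52.4 at the fewest reads. It was the most abundant HOXA row in both libraries. Here and below, such intervals cover the counting of reads only and not the spread between cultures. In bulk RNA a low level in all cells cannot be told apart from a higher level in few.

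HOXA11, which acts in limb and kidney development, had 3.56 FPKM in AS STRAP KO and 0.0197 FPKM in AS WT. The value of AS WT corresponds to 1.00 to 1.28 reads and that of AS STRAP KO to 184 to 234 reads, so the ratio of 181 has an interval of 32.2 to 7205. With 1 FPKM added to each value its log2 ratio was 2.16 instead of 7.50. HOXA11 was thus all but silent in AS WT, and the size of its ratio is poorly determined.

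HOXA5, a regulator of lung and neck development in the mouse, had 5.51 FPKM in AS STRAP KO and 0.585 FPKM in AS WT. The ratio was 9.42 (interval 2.26 to 82.9), from 18.9 to 216 reads in AS STRAP KO and 1.98 to 22.6 reads in AS WT. The row of HOXA3, HOXA4 and HOXA6, anterior and middle genes of the cluster, had 1.91 FPKM in AS STRAP KO and 0.115 FPKM in AS WT, a ratio of 16.6 (interval 2.28 to 623). Both rows lay above 1 FPKM in AS STRAP KO only.

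The remaining HOXA rows stayed below 0.3 FPKM in both libraries. HOXA2, which patterns the second pharyngeal arch, had 0.227 FPKM in AS STRAP KO and HOXA13, which acts in the digits and the genital tract, 0.272 FPKM, and both were listed at 0 in AS WT. These values rest on an estimated 8.99 to 10.8 reads for HOXA2 and 4.87 to 34.9 reads for HOXA13 in AS STRAP KO. A value of 0 in the table was not read as absence, since a low level can yield no read. Genes with repeated rows, which HOX genes lack, have a further limit: the 7 rows of RPS18, a gene of the ribosome, were at 0 in both libraries. HOXA7 had 0.276 FPKM in AS STRAP KO and 0.231 FPKM in AS WT. Its ratio was 1.20, with an interval of 0.0715 to 13.6 at the fewest reads. The rows beside it had ratios of 16.6 and 21.6, above that interval, though their own intervals overlap it. By its longest transcript, HOXA7 had an estimated 13.4 reads in AS STRAP KO and 11.0 reads in AS WT. The level within HOXA in AS STRAP KO was therefore uneven, highest at HOXA9 and HOXA10 and under 0.3 FPKM at both ends and at HOXA7.

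To show the sequence at the starts of genes in HOXA rows that were higher in AS STRAP KO, the windows of 250 bases before to 50 bases after the RefSeq start are given for HOXA11, and for HOXA4 and HOXA9, whose own levels are not known apart from those of their shared rows. That of HOXD13, which is expressed in both libraries, follows for comparison. Capitals mark each CG dinucleotide, the site at which vertebrate DNA is methylated. The windows lie at chr7:27130708-27131007, chr7:27165488-27165787 and chr7:27185183-27185482 on the minus strand and at chr2:176092471-176092770 on the plus strand of GRCh38.p14.
HOXA4: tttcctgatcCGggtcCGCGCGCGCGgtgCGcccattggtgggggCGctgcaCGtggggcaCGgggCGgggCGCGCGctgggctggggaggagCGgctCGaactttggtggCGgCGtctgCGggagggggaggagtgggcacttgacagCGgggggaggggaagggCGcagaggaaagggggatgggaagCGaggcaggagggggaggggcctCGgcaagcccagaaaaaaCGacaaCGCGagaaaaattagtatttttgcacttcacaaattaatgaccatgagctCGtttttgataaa
HOXA9: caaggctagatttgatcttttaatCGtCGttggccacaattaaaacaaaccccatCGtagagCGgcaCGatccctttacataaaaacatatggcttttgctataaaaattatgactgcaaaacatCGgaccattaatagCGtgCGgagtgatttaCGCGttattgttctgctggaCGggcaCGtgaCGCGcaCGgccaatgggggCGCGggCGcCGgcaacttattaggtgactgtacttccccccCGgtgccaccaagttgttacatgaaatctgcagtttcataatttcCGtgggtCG
HOXA11: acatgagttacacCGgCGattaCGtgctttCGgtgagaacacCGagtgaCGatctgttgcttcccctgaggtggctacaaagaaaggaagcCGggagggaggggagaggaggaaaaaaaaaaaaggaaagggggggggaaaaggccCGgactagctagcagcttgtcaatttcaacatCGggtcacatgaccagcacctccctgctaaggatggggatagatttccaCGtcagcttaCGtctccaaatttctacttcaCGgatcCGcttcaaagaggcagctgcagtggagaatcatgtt
HOXD13: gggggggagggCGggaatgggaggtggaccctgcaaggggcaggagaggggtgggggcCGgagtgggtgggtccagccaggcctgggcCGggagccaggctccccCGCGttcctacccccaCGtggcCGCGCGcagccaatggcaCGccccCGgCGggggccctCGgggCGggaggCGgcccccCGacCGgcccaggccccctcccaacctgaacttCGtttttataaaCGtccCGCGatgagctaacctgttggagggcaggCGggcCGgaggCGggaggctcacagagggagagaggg
HOXA4 has 27 CG in its window, HOXA9 22, HOXA11 13 and HOXD13 24, and the median of the 35116 RefSeq windows of this length was 14. RefSeq windows were matched for 20 of the 39 HOX genes, 27 windows in all, with a median of 22 CG. The 16 windows of 9 HOXA genes had a median of 21.5 CG and the 8 windows of 8 HOXD genes one of 24.5. DNA methylation was not measured here.

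3 motifs were searched on both strands. TTTAT, the core bound by CDX proteins and by posterior HOX proteins, was found in 10 of the 16 HOXA windows (62.5%) and in 34.9% of all windows. HOXA3 alone supplies 7 of the 16 windows, as alternative starts, and 5 of the 10 matches, and by gene the motif was found in 5 of 9. The TATA box TATAAA was found in 4 of 16 (25.0%) and in 11.5% of all, and every match to it also holds TTTAT on the other strand. TGATNNAT, a composite site of PBX and HOX proteins, was found in 1 of 16 (6.25%) and in 7.398% of all. A match to these letters is a description of the window and not of binding.

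Noncoding RNAs made within HOXA showed the same direction as its genes, in rows of their own. All 6 such rows were higher in AS STRAP KO by some amount, against 45.7% of the 24428 rows above 0 FPKM in at least 1 library. Of the 6 rows, 5 were listed at 0 in AS WT. At 1 FPKM or more this held for 1 of 2 such rows and for 113 of the 13527 rows of the whole table. HOXA11-AS, transcribed from the strand opposite HOXA11 and in a row with 6 further symbols known only by clone names, had 18.4 FPKM in AS STRAP KO and 1.94 FPKM in AS WT, a ratio of 9.48 (interval 5.63 to 17.6). HOXA10-AS had 2.19 FPKM in AS STRAP KO, an estimated 14.1 to 56.1 reads, and was listed at 0 in AS WT. HOXA-AS2 had 0.540 FPKM in AS STRAP KO, HOTAIRM1, an RNA from the 3′ end of the cluster known from myeloid cells, 0.246 FPKM, HOTTIP, an RNA from its 5′ end that binds the Trithorax subunit WDR5, 0.173 FPKM and HOXA-AS3 0.104 FPKM. These last 4 rows were listed at 0 in AS WT and rest, at the fewest, on 1.00 to 2.86 reads in AS STRAP KO. The libraries were directional, and the authors ran Cufflinks with a strand-specific setting but name default parameters for Cuffdiff. Whether sense and antisense reads were kept apart in the deposited FPKM is therefore not known. A part of sense reads in these antisense rows was not tested.

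Most genes around HOXA with at least 1 FPKM did not share this direction. Within 1000 kb on either side, 10 rows reached 1 FPKM, of which none was higher in AS STRAP KO by at least 2-fold and 1 was lower by as much. The shares of the whole table were 8.31% higher and 10.6% lower. The median log2 ratio of the 10 rows was -0.63. SKAP2, an adaptor protein gene beyond the 3′ end of the cluster, had 1.91 FPKM in AS STRAP KO and 0.967 FPKM in AS WT, just under 2-fold. EVX1, the homeobox gene next to HOXA13, had 0.0704 FPKM in AS STRAP KO and was listed at 0 in AS WT. EVX1-AS had 0.213 FPKM in AS STRAP KO and NHP2P2, between the cluster and SKAP2, 0.145 FPKM, both listed at 0 in AS WT. SKAP2 and these rows below the filter were the nearest to the cluster, and all were higher in AS STRAP KO by some amount, at low levels. Farther out, HIBADH had 19.2 FPKM in AS STRAP KO and 34.1 FPKM in AS WT, and SNX10 had 34.5 FPKM in AS STRAP KO and 54.6 FPKM in AS WT. CREB5, listed as a neighbour of HOXA, had 0.714 FPKM in AS STRAP KO and 2.01 FPKM in AS WT. On the short arm of chromosome 7 outside HOXA, 3 of 152 protein-coding rows at 1 FPKM or more were higher by at least 2-fold (1.97%) and 22 were lower (14.5%), against 7.22% higher and 6.64% lower among the protein-coding rows of all chromosomes. Their median log2 ratio was -0.55, against 0.05 over those 10966 rows.

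**Figure D3:**
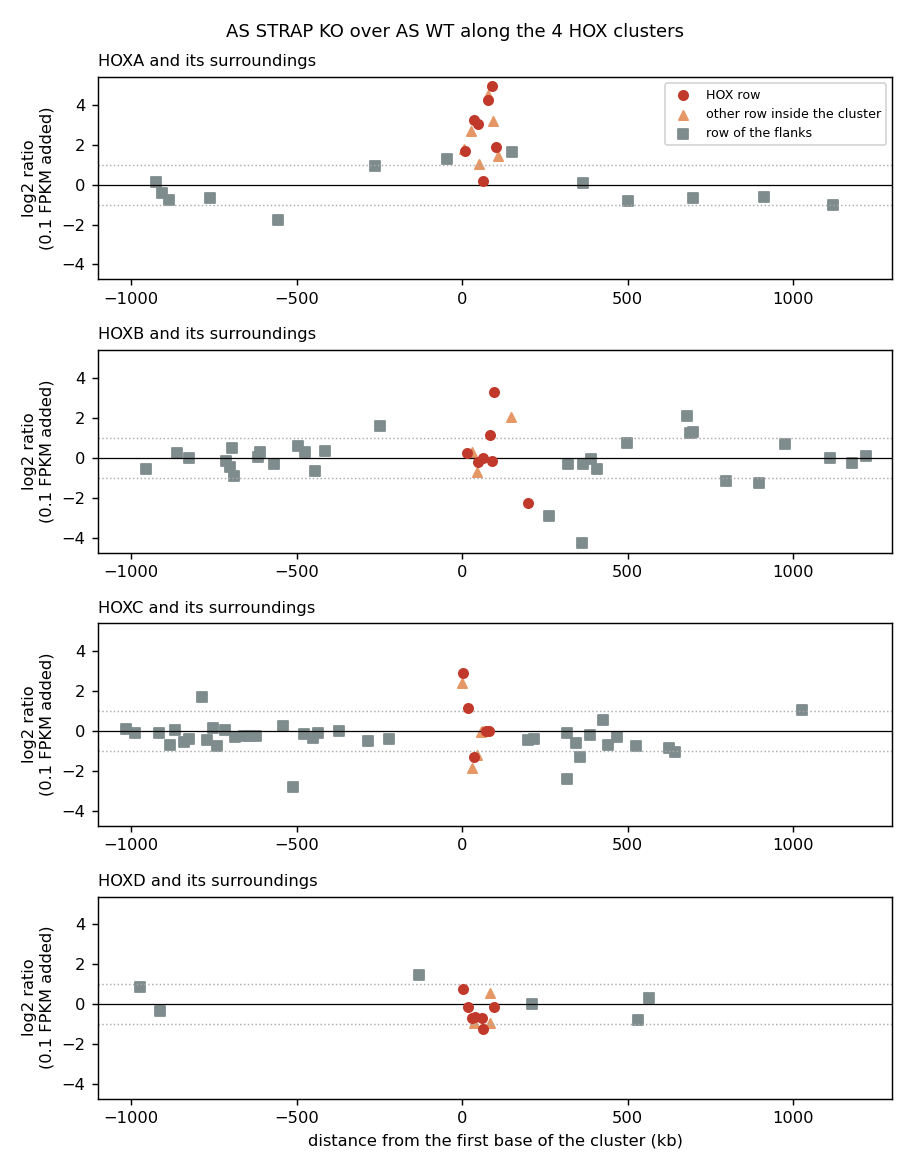
Log2 of AS STRAP KO over AS WT, with 0.1 FPKM added to each value (vertical axis) against the distance of each row's midpoint from the first base of the cluster in kb, for rows described here with at least 0.1 FPKM in 1 library: HOX rows (circles), other rows inside the cluster (triangles) and rows within 1000 kb of it (squares), with dotted lines at 2-fold. In HOXA all circles and triangles lie above 0, while in HOXB, HOXC and HOXD the circles lie on both sides of it.

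HOXB, on chromosome 17 of GRCh38 from 48528526 to 48728750, was the most abundant cluster in both libraries. HOXB2, an anterior gene of the hindbrain and neural crest, had 96.7 FPKM in AS STRAP KO and 80.8 FPKM in AS WT, a ratio of 1.20 (interval 1.09 to 1.31). The row of HOXB3, HOXB4 and HOXB6 had 71.2 FPKM in AS STRAP KO and 82.6 FPKM in AS WT, a ratio of 0.863 (0.742 to 1.01). HOXB7, a gene of the trunk, had 23.6 FPKM in AS STRAP KO and 26.4 FPKM in AS WT, a ratio of 0.894 (0.725 to 1.10), and HOXB5, a regulator of enteric neural crest, 7.26 FPKM in AS STRAP KO and 7.24 FPKM in AS WT, a ratio of 1.00 (0.855 to 1.17). The 4 rows that carry nearly all HOXB RNA thus lay within 1.2-fold of AS WT. 

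The 5′ part of HOXB differed more, at lower levels. HOXB9, the paralogue of HOXA9, had 3.72 FPKM in AS STRAP KO and 0.287 FPKM in AS WT. Its single annotated transcript gives an estimated 237 reads in AS STRAP KO and 18.0 reads in AS WT, and a ratio of 12.9 (interval 8.04 to 22.3). HOXB8, its neighbour, had 0.417 FPKM in AS STRAP KO and 0.135 FPKM in AS WT, a ratio of 3.09 with an interval of 0.238 to 155. HOXB13, a regulator of the prostate, went the other way, listed at 0 in AS STRAP KO and at 0.384 FPKM, an estimated 28.7 reads, in AS WT. HOXB1, the hindbrain gene, stayed at 0.0309 FPKM in AS STRAP KO and 0.0415 FPKM in AS WT. Beyond HOXB13, TTLL6, a tubulin-modifying enzyme, had 1.21 FPKM in AS STRAP KO and 9.76 FPKM in AS WT, 8.09-fold lower.

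The antisense RNAs of HOXB did not follow HOXB9. HOXB-AS1 and HOXB-AS3 share a row that had 47.3 FPKM in AS STRAP KO and 77.4 FPKM in AS WT, a log2 ratio of -0.71. HOXB-AS2 had 0.466 FPKM in AS STRAP KO and 0.355 FPKM in AS WT, and HOXB-AS4 was listed at 0 in both.

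HOXC, on the plus strand of chromosome 12 from 53938831 to 54056030, was nearly equal between the libraries in its main part and differed at its 5′ end. The row of HOXC4, HOXC5, HOXC6, HOXC9 and HOXC10, of which HOXC9 is known to promote neuronal differentiation of neuroblastoma cells, had 68.8 FPKM in AS STRAP KO and 69.8 FPKM in AS WT, a ratio of 0.987 (interval 0.835 to 1.16). HOXC8, a gene of the trunk, had 8.06 FPKM in AS STRAP KO and 8.04 FPKM in AS WT, a ratio of 1.00 (0.881 to 1.14). An opposite change of single genes inside the shared row cannot be seen in its sum.

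HOXC11, a posterior gene, had 1.57 FPKM in AS STRAP KO and 4.08 FPKM in AS WT. It was 2.60-fold lower, a ratio of 0.384 (interval 0.292 to 0.504), from 76.9 to 128 reads in AS STRAP KO and 197 to 328 reads in AS WT. HOTAIR, a noncoding RNA next to HOXC11 that is known to bind Polycomb proteins, had 4.41 FPKM in AS STRAP KO and 16.4 FPKM in AS WT, 3.73-fold lower (ratio 0.268, interval 0.168 to 0.420). HOXC-AS3 had 0.637 FPKM in AS STRAP KO and 1.60 FPKM in AS WT, a ratio of 0.398 with an interval of 0.0705 to 1.85. With 1 FPKM added to each value, the log2 ratio of HOXC11 was -0.98 and no longer passed 2-fold.

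The 2 genes 5′ of HOXC11 were higher, at levels below 1 FPKM. HOXC13, a regulator of hair and nails, had 0.903 FPKM in AS STRAP KO and 0.0353 FPKM in AS WT, an estimated 51.9 reads in AS STRAP KO and 2.002 reads in AS WT, a ratio of 25.6 (interval 6.75 to 217). HOXC12 had 0.232 FPKM in AS STRAP KO and 0.0497 FPKM in AS WT, an estimated 19.0 reads in AS STRAP KO and 4.00 reads in AS WT, a ratio of 4.67 (1.56 to 18.9). HOXC13-AS, the antisense RNA of HOXC13, had 0.434 FPKM in AS STRAP KO, an estimated 13.99 reads, and was listed at 0 in AS WT. From the 5′ end of HOXC inwards, the rows were therefore higher at HOXC13 and HOXC12, lower at HOXC11 and HOTAIR and nearly equal from the shared row and HOXC8 on. HOXC-AS1, which lies in that last stretch, had 3.20 FPKM in each library and HOXC-AS2 0.515 FPKM in AS STRAP KO and 0.545 FPKM in AS WT. Among the neighbours of HOXC, NFE2, a transcription factor of red blood cells and platelets, had 0.849 FPKM in AS STRAP KO and 2.22 FPKM in AS WT.

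HOXD, on the plus strand of chromosome 2 from 176092721 to 176190907, was lower by some amount in AS STRAP KO in 7 of its 8 rows. It was higher in 1, against 45.7% of the rows above 0 FPKM in the whole table. The row of HOXD10 and HOXD11, posterior genes of the limb, was the most abundant, with 36.8 FPKM in AS STRAP KO and 40.2 FPKM in AS WT, a ratio of 0.917 (interval 0.826 to 1.02). HOXD9 had 10.8 FPKM in AS STRAP KO and 17.3 FPKM in AS WT, a ratio of 0.624 (0.555 to 0.700). HOXD8, which is expressed along the trunk, had 7.58 FPKM in AS STRAP KO and 11.95 FPKM in AS WT, a ratio of 0.634 (0.530 to 0.757). HOXD4 had 2.12 FPKM in AS STRAP KO and 3.46 FPKM in AS WT, a ratio of 0.613 (0.428 to 0.877). These 3 rows lay at nearly the same ratio, all short of 2-fold.

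HOXD3, an anterior gene, was 2.52-fold lower, with 0.980 FPKM in AS STRAP KO and 2.47 FPKM in AS WT. The interval of its ratio of 0.397 reached from 0.125 to 1.08 at the fewest reads, and with 1 FPKM added its log2 ratio was -0.81. HOXD13, the digit gene at the 5′ end, was the exception, with 7.28 FPKM in AS STRAP KO and 4.33 FPKM in AS WT, a ratio of 1.68 (1.44 to 1.97) from an estimated 430 reads in AS STRAP KO and 252 reads in AS WT. HOXD12, next to HOXD13, stood at 0 in AS STRAP KO and at 0.0682 FPKM in AS WT, an estimated 1.15 to 4.21 reads. HOXD1 had 0.111 FPKM in AS STRAP KO and 0.136 FPKM in AS WT. It rested on an estimated 4.99 reads in AS STRAP KO and 6.01 reads in AS WT (interval of its ratio 0.198 to 3.23). Among the noncoding RNAs of HOXD, HOXD-AS2 had 2.704 FPKM in AS STRAP KO and 5.35 FPKM in AS WT, HAGLR 1.13 FPKM in AS STRAP KO and 0.742 FPKM in AS WT and HAGLROS 0.0814 FPKM in AS STRAP KO and 0.248 FPKM in AS WT. LNPK, a gene of the endoplasmic reticulum beyond HOXD13, had 17.6 FPKM in AS STRAP KO and 6.25 FPKM in AS WT, a ratio of 2.82.

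**Figure D4:**
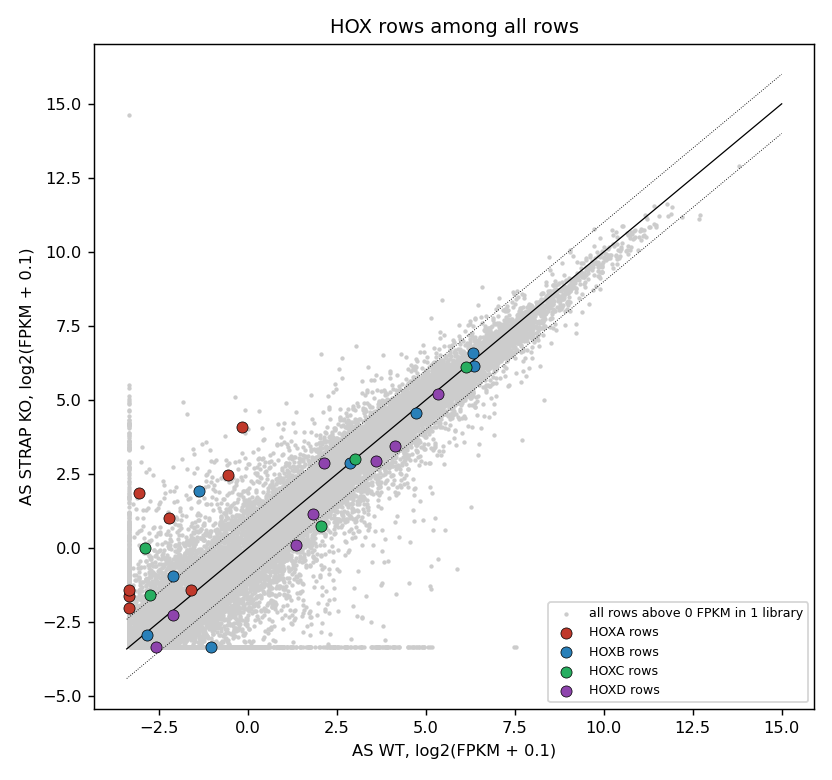
Log2(FPKM + 0.1) of AS STRAP KO (vertical axis) against AS WT (horizontal axis) for all 24428 rows above 0 FPKM in at least 1 library (grey) and the HOX rows of each cluster (colours), with the line of equal values and dotted lines at 2-fold. The well expressed rows of HOXB, HOXC and HOXD lie near the line, and the HOX rows above the upper dotted line belong to HOXA, HOXB8, HOXB9, HOXC12 and HOXC13.

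By paralogue group, the posterior rows went in both directions. In groups 9 to 13, the rows of HOXA9 with HOXA10, HOXA11, HOXB9, HOXC12 and HOXC13 were at least 4-fold higher in AS STRAP KO. All of these were below 1 FPKM in AS WT, and a low value in the denominator favours a high ratio. HOXD13 was 1.68-fold higher, HOXC11 and HOXD9 were lower and HOXB13 and HOXD12 were listed at 0 in AS STRAP KO. The shared rows that hold HOXD10 with HOXD11 (ratio 0.917) and HOXC9 with HOXC10 (ratio 0.987) were nearly equal. Paralogues of 1 group thus had unlike values. In group 9, HOXA9 (in its shared row) and HOXB9 were higher and HOXD9 was lower, at a ratio of 0.624, while HOXC9 could not be read apart from its shared row. In group 11, HOXA11 was higher and HOXC11 lower, and in group 13 HOXA13, HOXC13 and HOXD13 were higher and HOXB13 was not.

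The cofactors of HOX proteins that reached 1 FPKM lay within 2-fold of AS WT apart from MEIS3. Of the 7 TALE homeobox genes with at least 1 FPKM, none was higher by at least 2-fold, against 8.31% of the whole table. Lower by as much was 1 (14.3%, against 10.6%), and the median log2 ratio was -0.18, against 0.01 over all rows. MEIS3 had 17.6 FPKM in AS STRAP KO and 50.8 FPKM in AS WT, 2.89-fold lower (ratio 0.347, interval 0.268 to 0.448). MEIS2 had 38.4 FPKM in AS STRAP KO and 56.2 FPKM in AS WT, and MEIS1 29.0 FPKM in AS STRAP KO and 32.9 FPKM in AS WT. PKNOX2 stood at 0 in AS STRAP KO and at 0.119 FPKM in AS WT, and the highest of the 7 rows of PBX2 had 0.0814 FPKM in AS STRAP KO and was listed at 0 in AS WT. As for RPS18, such values of a gene with repeated rows were not read as absence.

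**Figure D5:**
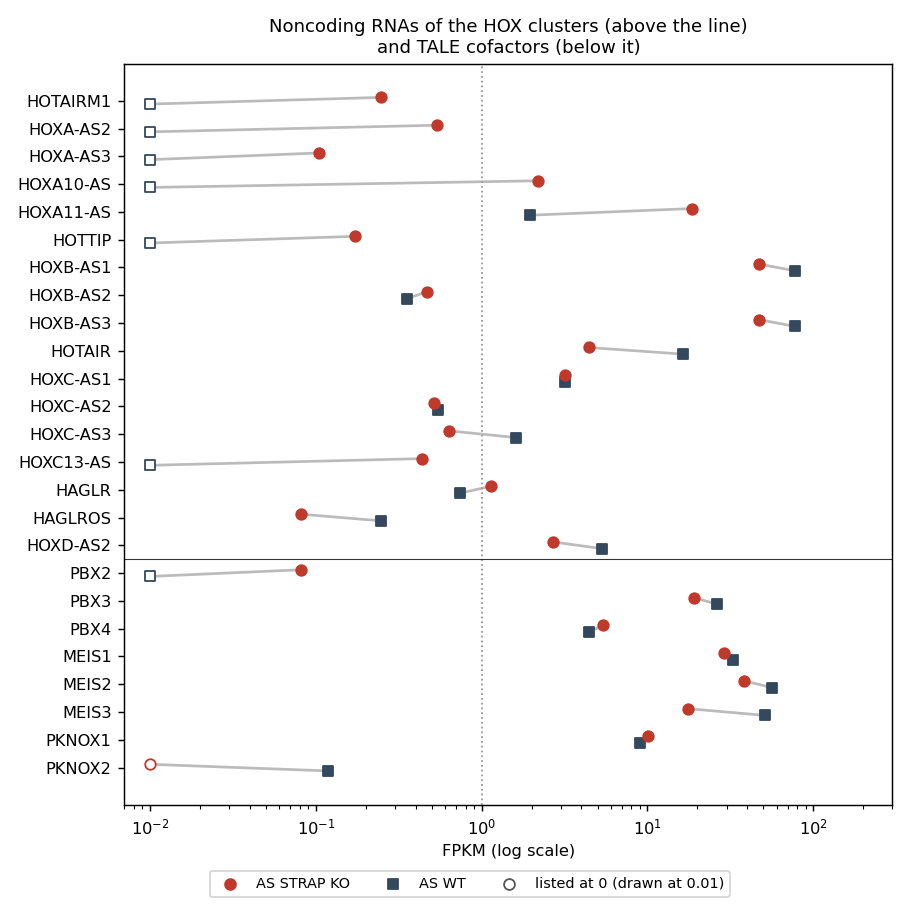
FPKM (log axis) of noncoding RNAs of the HOX clusters (above the line) and of TALE cofactors (below it) in AS STRAP KO (circles) and AS WT (squares), with open symbols at 0.01 for values listed at 0. HOXB-AS1 and HOXB-AS3 show the value of their common row. The 6 HOXA RNAs have their circles to the right, HOTAIR and MEIS3 to the left.

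Among the genes that keep HOX clusters active or silent, 2 of 15 Trithorax and KMT2A complex rows were higher by at least 2-fold and none was lower by as much (median log2 ratio 0.21). That share of 13.3% stands beside 8.31% over the whole table. These were DOT1L, the H3K79 methyltransferase, with 54.9 FPKM in AS STRAP KO and 24.8 FPKM in AS WT, and MLLT3, which recruits it, with 114 FPKM in AS STRAP KO and 45.3 FPKM in AS WT. KMT2A shares a row with ATP5MG, which had 263 FPKM in AS STRAP KO and 262 FPKM in AS WT. Of 17 Polycomb rows with at least 1 FPKM, 1 was higher by at least 2-fold, that of BMI1 with COMMD3, at 299 FPKM in AS STRAP KO and 89.0 FPKM in AS WT, and none was lower by as much (median 0.40), a share of 5.88% higher beside the same 8.31%. EZH2, the H3K27 methyltransferase, had 46.6 FPKM in AS STRAP KO and 68.7 FPKM in AS WT. RING1 and PCGF2, which also have repeated rows, were listed at 0 in every row of both libraries, which was not read as absence. No row of CTCF and cohesin, which shape the boundaries within HOX clusters, was beyond 2-fold (10 rows, median 0.24). In the whole table, 8.31% of rows were higher and 10.6% lower by as much.

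Of the 5 upstream regulators with at least 1 FPKM, 1 was higher by at least 2-fold (20%, against 8.31% of the whole table). None was lower by as much, against 10.6% of the whole table. CYP26B1, which breaks down retinoic acid, an inducer of HOX genes, had 7.35 FPKM in AS STRAP KO and 0.418 FPKM in AS WT. The receptor genes RARA, RARB, RARG and RXRA were each within 2-fold, with RARB at 2.53 FPKM in AS STRAP KO and 1.40 FPKM in AS WT. CDX1 and CDX2, caudal-type activators of posterior HOX genes, were listed at 0 in AS STRAP KO and had 0.233 and 0.0154 FPKM in AS WT, and CDX4 was listed at 0 in both. CYP26A1 and CYP26C1, which also break down retinoic acid, share a row that had 0.131 FPKM in AS STRAP KO and 0.375 FPKM in AS WT, 2.86-fold lower. By the shortest transcript of CYP26A1 this was 0.991 reads in AS STRAP KO and 2.80 reads in AS WT (interval 0.00626 to 4.09). By that of CYP26C1 it was 9.35 reads in AS STRAP KO and 26.4 reads in AS WT (interval 0.141 to 0.752). CDX1 rested on an estimated 9.66 reads in AS WT. The part of these genes in the HOX levels was not tested.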

How the data were processed

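The authors selected poly A RNA from both cultures and made directional libraries, which were read from 1 end over 75 bases. Per their methods, reads were aligned with STAR to GRCh38 with GENCODE release 32, and Cufflinks estimated the deposited FPKM. The submitters' processing notes list bcl2fastq 2.18.0.12, Cuffdiff, Cufflinks 2.2.1 and STAR 2.7.6. The sources used here do not say how replicates entered the 1 column per condition.

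HOX symbols were taken after splitting shared rows at commas. FPKM of AS STRAP KO were divided by those of AS WT, without pseudocount or test. Counts include a row if either library reached 1 FPKM. Named were all HOX genes and, from lists of noncoding RNAs, cofactors, regulators, neighbours and markers, the members past 2-fold or at 0 in 1 library and at least 1 FPKM in the other. Any other gene named was chosen after its values were seen. A few members of these lists enter the sums and counts but are not reported here by name. Members and lists were chosen with earlier results of these data known.

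The number of reads behind a value was estimated with the steps between low FPKM of single-transcript genes (1500 bases or longer, GENCODE 44), with lengths reduced by a mean fragment of 200 bases. Of 320 values of AS STRAP KO and 368 of AS WT between 1 and 5 reads, 93.8% and 94.8% lay within 0.1 of a whole read. The step was tested on simulated data. Intervals are exact 95% binomial (Clopper-Pearson) intervals of the rounded fewest reads. Promoter windows are from RefSeq. Alternatives were other filters, pseudocounts, scalings and row choices. Scripts ran on matplotlib 3.10.9, SciPy 1.17.1, pandas 2.3.3, numpy 2.4.6 and Python 3.11.15.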

Additional observations from a re-analysis of the deposited data

How the results depend on the processing

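Of the 11 alternatives, 5 can change the ratio of a single HOX row, and 24 rows have a ratio. With 1 FPKM added, 5 of the 24 log2 ratios moved by more than their counting error (or by more than 0.1 where none could be had), and with 0.1 FPKM added or under the 3 other scalings 0 did. The scalings shift all ratios alike, by at most 0.11. No paired analysis was possible because each condition has 1 column of values. The count of HOX rows at least 2-fold higher was 5 of 18 as reported, beside 8.31% of all rows. It was 0 of 12 with at least 1 FPKM in both libraries (4.87% of all rows) and 11 of 29 without a filter (16.8%). Over rows of 1 symbol it was 3 of 13 (8.56%). With each gene of a shared row counted, a choice made after seeing the data, it was 8 of 28. The count at least 2-fold lower, 2 as reported, was 0 with 1 FPKM added, 1 with at least 1 FPKM in both libraries and 4 without a filter. Over all rows, 1434 were lower and 1124 higher. These counts were 866 and 719 with 1 FPKM added, 680 and 577 with 1 FPKM in both libraries, 2646 and 1841 with 0.3 FPKM in 1 library and 5990 and 4110 without a filter. Filters change how many rows are counted, while adding 1 FPKM left 13527 rows and pulled ratios toward 0.

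With 1 FPKM in both libraries no HOXA row was left. The median log2 ratio of the 4 HOXA rows, 4.24, was 2.10 with 1 FPKM added, 3.75 with 0.1 FPKM added, 4.05 without a filter, 4.35 rescaled to a common total, 5.37 over rows of 1 symbol and 4.05 by gene. That of HOXB, 0.00, was 0.13 with 0.3 FPKM in 1 library, 0.11 rescaled, 0.13 over rows of 1 symbol and -0.16 by gene. That of HOXC, -0.02, was 0.10 rescaled and -0.69 over rows of 1 symbol, where only HOXC8 and HOXC11 were left. That of HOXD, -0.67, was -0.55 with 1 FPKM added and -0.56 rescaled. That of all HOX rows, -0.01, was -0.14 with 1 FPKM in both libraries and 0.11 rescaled, and that of the whole table, 0.01, was 0.11 rescaled. Rescaling adds 0.11 to each log2 ratio and also lets more rows pass the filter, 14473 instead of 13527 in all and 19 instead of 18 of HOX. Of all rows beyond 2-fold, 48.5% were lower after rescaling, against 56.1% as deposited. HOX rows below 0.1 FPKM can rest on 1 to 5 reads, which limits their ratios.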
